A study of Rattus norvegicus with 6 samples.

Results

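Endothelin and angiotensin signalling was described through 9 genes of a table of 33565: the peptide precursors Edn1, Edn3 and Agt, the converting enzymes Ece1 and Ace, and the receptors Ednra, Ednrb, Agtr1a and Agtr2. They were chosen by gene symbol, and each symbol had a row in the table. The cells were primary cardiomyocytes from the hearts of Sprague-Dawley rats at postnatal day 7, grown in DMEM that contained fetal bovine serum at 10%. For 24 h they received either the control vehicle, of unstated composition, or 100 nM progesterone, a steroid hormone. mRNA was sequenced from 3 control and 3 progesterone libraries, called biological replicates in the labels. Whether these came from separate animals or cultures is not stated, and p-values reflect only the spread among these libraries, which may be technical. The series title links progesterone, through the coactivator YAP, to cardiomyocyte proliferation and cardiac repair.

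Endothelins and angiotensin II are short peptides cut from larger secreted precursors, and both act on receptors coupled to G proteins. In the heart, endothelin receptor A and the angiotensin type 1 receptor act largely through Gq and phospholipase C, and are known for vasoconstriction, hypertrophic growth of cardiomyocytes and matrix production. Endothelin receptor B and the angiotensin type 2 receptor are often described as counterweights: the former releases nitric oxide from endothelium and clears endothelin, and the latter is most abundant in fetal tissue.

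The libraries held between 21156793 and 25376220 counts. Levels are given as CPM, the counts scaled to a common library size and composition, and a gene was called changed at an adjusted p under 0.05 in edgeR's quasi-likelihood test with Benjamini-Hochberg adjustment over all genes tested. The same test and adjustment lie behind every adjusted p and every log2 fold change (progesterone against control, ± SE) below. Cardiomyocyte markers were well read, with the 12 listed markers, among them Myh6 and Tnnt2, summing to between 13110 and 13710 CPM in the controls and between 11730 and 12840 CPM with progesterone. Of these 12 markers 5 were higher, 5 lower and 2 not called (83.3% called, against 63.0% of all genes tested, median log2 fold change -0.01). Myh6 was lower, from 4384 to 3498 CPM, and Actn2 higher, from 818 to 1008 CPM. The cultures also held other cells: 11 fibroblast markers summed to 28010 to 29200 CPM in the controls and 37900 to 40790 CPM with progesterone. Much of that rise was Col3a1, a collagen gene, which went from 6556.5 to 13735 CPM. Of the 11 markers 7 were higher, 3 lower and 1 not called. Dcn was among the lower, from 2093.5 to 945.74 CPM. As the cultures were read as bulk samples, fewer cells of a type and less RNA per cell cannot be told apart.

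Of the 9 genes, 8 had enough counts to be tested, and all 8 changed: Edn1, Ednrb, Agt and Agtr2 were higher with progesterone, and Ece1, Ednra, Ace and Agtr1a were lower. Across all 15075 genes tested 63.0% changed, 31.2% higher and 31.8% lower, and with upper quartile scaling 60.1% of the changed genes were higher against 49.6% here. The median log2 fold change was 0.11 over the 8 genes and 0.00 over all genes tested. Ednrb and Agt changed at least 2-fold, which 16.5% of all genes tested did. The 3 control and 3 progesterone values did not overlap in any of the 8 genes, nor in 68.6% of all genes tested.

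**Figure D1:**
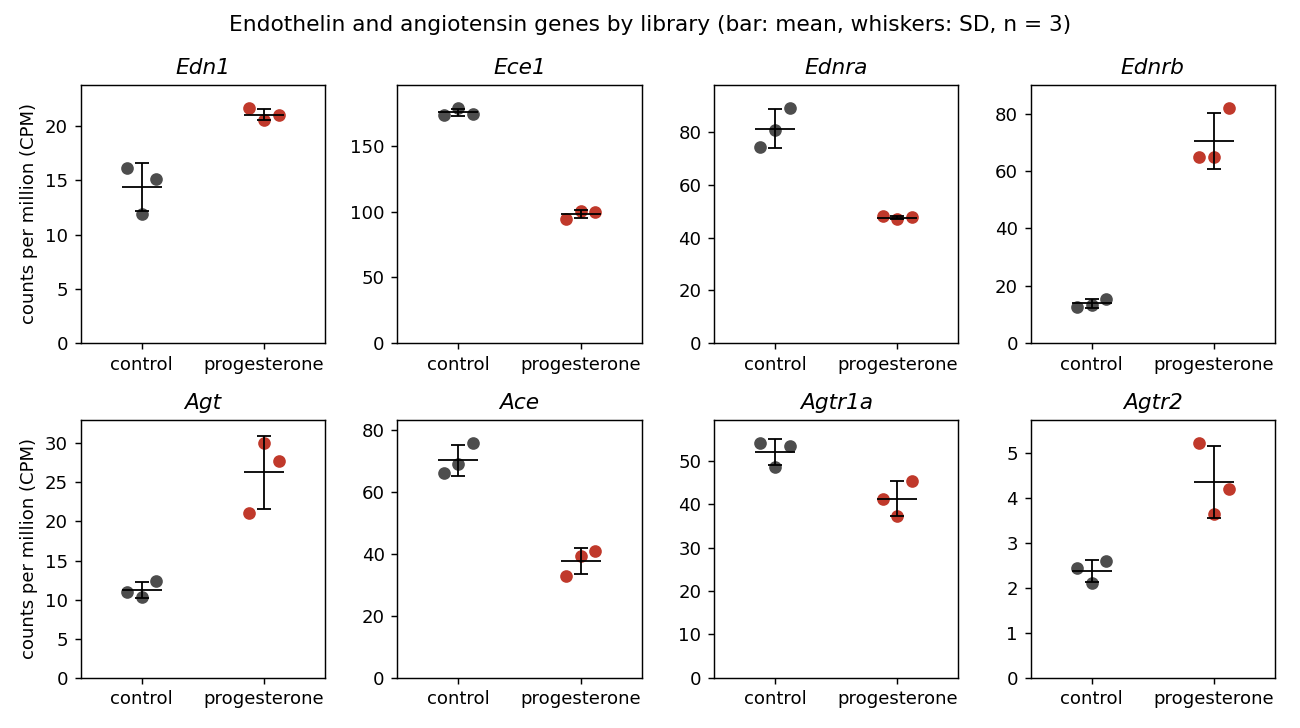
CPM of the 8 tested genes in each library (points, with replicates 1 to 3 from left to right), with the mean (bar) and SD (whiskers, n = 3) of each group; each y axis starts at 0. Edn1, Ednrb, Agt and Agtr2 are higher in all 3 progesterone libraries than in any control library, and Ece1, Ednra, Ace and Agtr1a are lower.

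The upstream sequences of the endothelin-1 gene and of its receptor genes are shown because the ligand and receptor B were higher in the libraries in which receptor A was lower. RefSeq's promoter table (GRCr8) held 7 of the 9 genes, all but Edn3 and Agt. The 250 bases before the listed start were searched on both strands for 7 motifs. The core of the steroid hormone response element was searched as ACANNNTGT and the AP-1 site as TGANTCA. The site of the GATA factors was searched as AGATAA, and that of TEAD proteins, the partners of YAP, as GGAATG. The hypoxia response element was searched as ACGTG and the TATA box as TATAAA, and the interferon-stimulated response element was searched too. Capitals mark matches, and the sequences read 5′ to 3′ on the strand of the gene.
Edn1 (chr17:22666688-22666937, minus strand): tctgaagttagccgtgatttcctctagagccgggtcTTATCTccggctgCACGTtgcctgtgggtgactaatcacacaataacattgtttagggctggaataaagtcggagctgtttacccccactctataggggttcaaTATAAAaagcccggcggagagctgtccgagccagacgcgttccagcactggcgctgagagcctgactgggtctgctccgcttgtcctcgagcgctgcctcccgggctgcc
Ednra (chr19:47137674-47137923, plus strand): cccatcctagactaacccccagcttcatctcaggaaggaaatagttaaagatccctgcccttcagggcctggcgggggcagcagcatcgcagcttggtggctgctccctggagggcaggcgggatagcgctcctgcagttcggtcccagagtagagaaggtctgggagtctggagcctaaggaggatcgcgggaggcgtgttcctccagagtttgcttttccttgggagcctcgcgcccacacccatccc
Ednrb (chr15:87086766-87087015, minus strand): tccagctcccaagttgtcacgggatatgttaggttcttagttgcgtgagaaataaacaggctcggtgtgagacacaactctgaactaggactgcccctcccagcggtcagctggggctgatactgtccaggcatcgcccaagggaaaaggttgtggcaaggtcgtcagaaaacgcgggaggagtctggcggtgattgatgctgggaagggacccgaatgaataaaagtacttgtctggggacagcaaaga
The Edn1 window held a GATA match on the opposite strand that begins 214 bases before the start, a hypoxia response match on the opposite strand at 201 bases and a TATA box at 110 bases. The Ednra and Ednrb windows held none of these letters. Among the other windows, that of Ace held a TATA box match on the opposite strand, beginning 42 bases before the start. That of Agtr1a held one on the strand of the gene at 45 bases, and those of Ece1 and Agtr2 held no match. In the same windows of all 33469 promoters, 10.3% held AGATAA, 16.6% ACGTG, 12.9% TATAAA, 12.1% GGAATG, 6.34% TGANTCA, 5.81% ACANNNTGT and 3.41% the interferon-stimulated element. None of the 7 windows held the TEAD, AP-1, steroid hormone or interferon-stimulated letters. A match is a description and not a binding site, and the absence of one says only that these letters are not in this window.

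Of the endothelin ligands, only Edn1 was read at a level that could be tested. Edn1 encodes the precursor of endothelin-1, the main endothelin of the cardiovascular system. Its row lies on chromosome 17 (22137324 to 22143324, minus strand, like all positions of the deposited table in an unnamed rat build). The control libraries held 16.1, 11.9 and 15.1 CPM of Edn1, and the progesterone libraries 21.6, 20.6 and 21 CPM. The progesterone libraries lay close together and above every control, and control replicate 2 was the lowest of all. Edn1 rose from 14.4 ± 2.22 to 21.1 ± 0.54 CPM (SD, n = 3), a log2 fold change of 0.55 ± 0.10 (adjusted p = 2.0e-04). Edn3, the gene of endothelin-3 (chromosome 3, 172856733 to 172880450), had 2 counts, both in control replicate 3, and 0 counts over the progesterone libraries, which allows up to 0.0456 CPM there. Edn2, the gene of endothelin-2, had 3 counts over the control and 1 over the progesterone libraries. Limits from counts of 0 and counting intervals cover counting error only.

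Ece1 encodes the endothelin-converting enzyme, a membrane metalloprotease that cuts big endothelin to the active peptide. Its row lies on chromosome 5 (156215417 to 156318671, plus strand). Ece1 stood at 174, 179 and 174 CPM in the control libraries, against 94.9, 100 and 99.6 CPM under progesterone. All progesterone values were far below the controls, and both groups were tight. It fell 1.79-fold, a log2 fold change of -0.84 ± 0.04 (adjusted p = 1.0e-10). Its relative Ece2 averaged 3.68 ± 0.0804 CPM without and 3.18 ± 0.592 CPM with the hormone, with overlapping values and an adjusted p of 0.32 (95% interval of the log2 fold change -0.60 to 0.17).

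The endothelin receptor genes moved in opposite directions, and their order changed. Ednra, the gene of receptor A (chromosome 19, 33928356 to 33991703, plus strand), had 74.3, 80.9 and 89.1 CPM without progesterone and 48.1, 47 and 47.7 CPM with it. The progesterone libraries were nearly equal to each other and below each control. Ednra fell 1.71-fold, a log2 fold change of -0.77 ± 0.06 (adjusted p = 2.9e-08). Ednrb, the gene of receptor B (chromosome 15, 88006977 to 88036354, minus strand), had 12.5, 13.4 and 15.4 CPM without progesterone and 64.8, 65 and 81.8 CPM with it. Progesterone replicate 3 was the highest, and the lowest progesterone value was still well above the highest control. Ednrb rose from 13.7 ± 1.46 to 70.5 ± 9.76 CPM, 5.14-fold, with a log2 fold change of 2.36 ± 0.12 (adjusted p = 3.0e-07), the largest change among the tested members. The row of Mycbp2, a gene on the same strand (87506959 to 93868301), spans that of Ednrb in the table. Mycbp2 moved the other way, from 236 to 110 CPM (log2 fold change -1.10 ± 0.05, adjusted p = 1.9e-11), and a part of overlapping reads in either value was not tested.

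Per gene length, as the FPKM values that the authors deposited, Ednra stood above Ednrb in every control library and below it in every progesterone library. The ratio of Ednra to Ednrb was 2.33, 2.38 and 2.28 in the controls and 0.292, 0.284 and 0.229 with progesterone. Its mean fell from 2.33 ± 0.0512 to 0.268 ± 0.0343 (SD, n = 3), a difference of -3.13 on the log2 scale. The two-sided exact permutation test over the 6 libraries gave p = 0.1, which is the smallest value it allows for 3 against 3. The ratio of Edn1 to Edn3 could not be formed, since Edn3 was at 0 in 5 libraries.

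**Figure D2:**
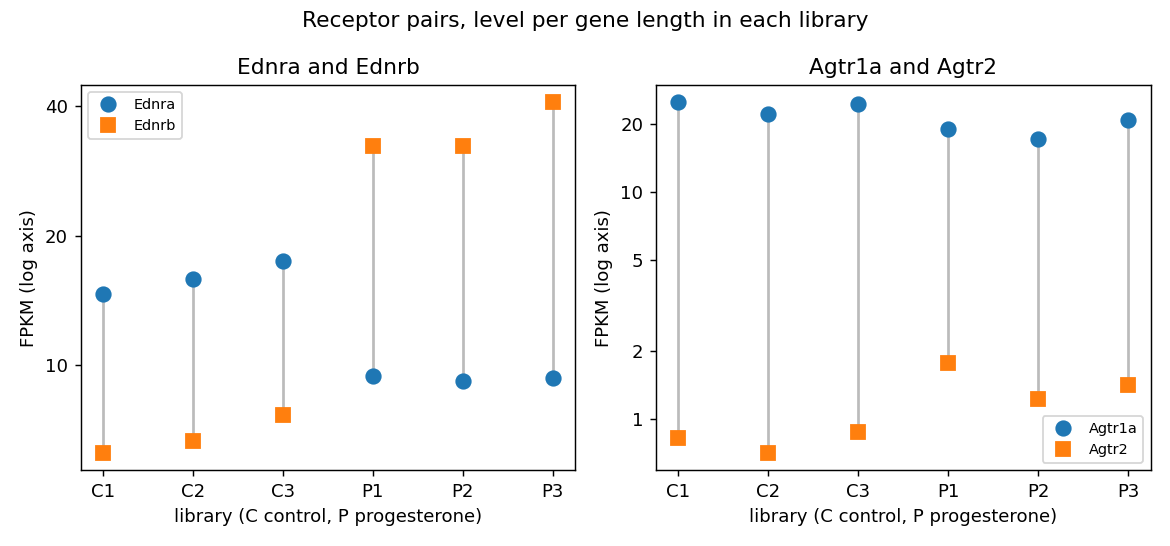
FPKM (log axis) of the endothelin receptor genes Ednra and Ednrb (left) and of the angiotensin receptor genes Agtr1a and Agtr2 (right) in each library, with the genes of a library joined by a line. The endothelin receptors change places between the control and progesterone libraries, while Agtr1a stays above Agtr2 in all 6 libraries and the gap narrows with progesterone.

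In the angiotensin system the precursor gene was higher and the gene of the converting enzyme lower. Agt encodes angiotensinogen, the only known precursor of the angiotensins (chromosome 19, 57321640 to 57333433, minus strand). Its control values were 11, 10.3 and 12.3 CPM, and its progesterone values 21.1, 30 and 27.8 CPM. Progesterone replicate 1 was the lowest of its group and still above all controls. Agt rose 2.34-fold, from 11.2 ± 1.02 to 26.3 ± 4.65 CPM, with a log2 fold change of 1.23 ± 0.13 (adjusted p = 1.2e-05). Cog2 lies 2311 bases away on the opposite strand and also rose, by a log2 fold change of 0.33 ± 0.07 (adjusted p = 5.1e-04). Whether reads of the pair were kept apart by strand is not stated.

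Ace encodes angiotensin-converting enzyme, which makes angiotensin II and breaks down bradykinin. Its row lies on chromosome 10 (94170766 to 94187822, plus strand). Its control values were 66.1, 69 and 75.9 CPM and its progesterone values 32.8, 39.4 and 41 CPM, so that the groups lay well apart. Ace fell 1.86-fold, a log2 fold change of -0.90 ± 0.08 (adjusted p = 3.8e-06).

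Agtr1a, the gene of the main angiotensin type 1 receptor of rodents (chromosome 17, 35907108 to 35958077, minus strand), had 54.1, 48.6 and 53.5 CPM without progesterone and 41.3, 37.4 and 45.3 CPM with it. The groups came close, with progesterone replicate 3 a little below control replicate 2. Agtr1a fell 1.26-fold, a log2 fold change of -0.33 ± 0.07 (adjusted p = 8.2e-04), the smallest change among the tested members. Agtr1b, the other rodent type 1 receptor gene, is similar in sequence and had 0 counts in all 6 libraries, which allows up to 0.0219 CPM over them. The counting could have given reads of the pair to Agtr1a.

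Agtr2, the gene of the type 2 receptor (X chromosome, 119390013 to 119393842, plus strand), was the least read of the tested members, with 62, 49 and 59 counts in the control and 110, 77 and 97 counts in the progesterone libraries. In CPM these were 2.44, 2.1 and 2.58 in the controls and 5.21, 3.62 and 4.2 with progesterone. All progesterone values were above the controls, with replicate 1 the highest. Agtr2 rose 1.83-fold, a log2 fold change of 0.87 ± 0.19 (adjusted p = 9.0e-04), which was 0.45 on the log2(FPKM + 1) scale, where low values are compressed. The FPKM ratio of Agtr1a to Agtr2 was 29.9, 31.1 and 27.9 in the controls and 10.7, 13.9 and 14.6 with progesterone. Its mean fell from 29.7 ± 1.63 to 13.1 ± 2.06 (SD, n = 3; two-sided exact permutation p = 0.1, the smallest possible).

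Ordered by FPKM, which compares levels between genes per length, Ece1 stood first in the controls at 37.6 ± 0.522, followed by Agtr1a (23.8 ± 1.43), Ace (18.6 ± 1.3), Ednra (16 ± 1.43) and Edn1 (10.3 ± 1.61). Ednrb (6.87 ± 0.722) and Agt (5.79 ± 0.523) came next, and their ranges overlapped, while those of the other neighbours in the control order did not. Agtr2 was read at 0.804 ± 0.0839 FPKM, and Edn3 was listed at 0 in 2 of the 3 control libraries. With progesterone Ednrb moved from sixth place to the first, at 35.2 ± 4.85 FPKM, ahead of Ece1 at 21 ± 0.618. Edn1 (15.1 ± 0.407) and Agt (13.5 ± 2.38) then stood above Ace (9.98 ± 1.13) and Ednra (9.33 ± 0.119). In that order the ranges of Ece1 and Agtr1a (18.9 ± 1.81), of Edn1 and Agt, and of Ace and Ednra overlapped.

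**Figure D3:**
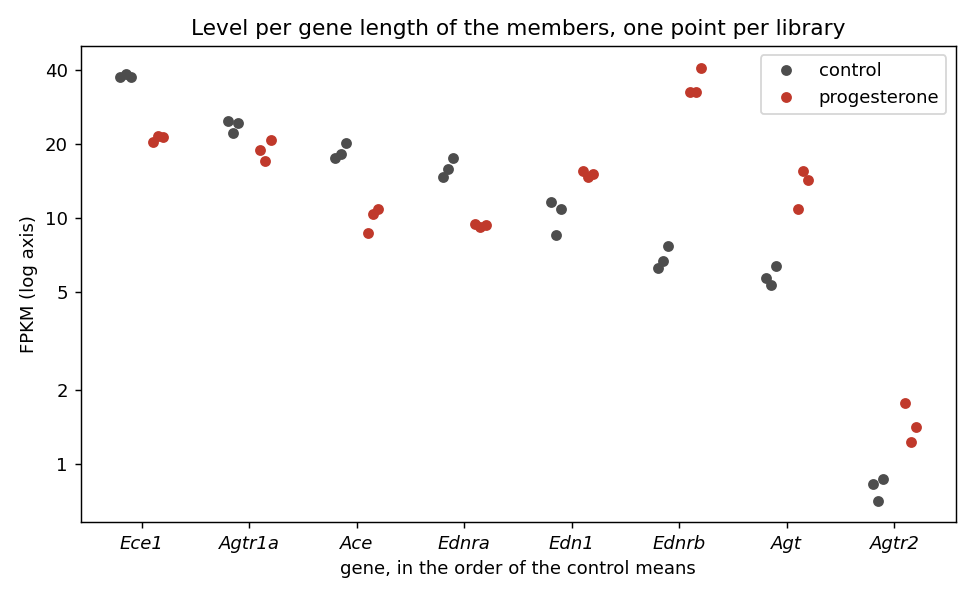
FPKM (log axis) of the 8 tested genes in each library, with controls in grey and progesterone in red, ordered by the control mean. In the progesterone libraries Ednrb lies above all the other genes, and in the controls Ece1 does.

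Beyond these 9 genes, 21 further genes of both systems, taken from a list of peptidases, receptors and partners, were looked up, and all had a row. Of these 14 were tested, of which 3 were higher, 5 lower and 6 not called. The share called was 57.1%, against 63.0% over all genes tested. The largest change was that of Mme, the gene of neprilysin, which degrades endothelin, natriuretic peptides, bradykinin and angiotensins. Mme went from 89.6, 90.5 and 96.7 CPM in the control libraries to 15.1, 12.6 and 14.2 CPM in those with progesterone. The groups lay far apart, and it fell 6.61-fold (log2 fold change -2.73 ± 0.07, adjusted p = 7.8e-15). Agtrap, whose protein binds the type 1 receptor and promotes its internalisation, fell from 42 ± 2.31 to 20.7 ± 2.48 CPM (log2 fold change -1.02 ± 0.08, adjusted p = 5.3e-08). Prcp, a carboxypeptidase that shortens angiotensin II, fell from 38.4 ± 1.87 to 22.6 ± 1.19 CPM (log2 fold change -0.77 ± 0.07). Atp6ap2, whose protein is a partner of the vacuolar proton pump, had a log2 fold change of -0.27 ± 0.05 (adjusted p = 3.2e-04).

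Other peptidases of the chain cut angiotensin I or its products. Thop1 and Prep, oligopeptidases that release shorter angiotensins, rose 1.47-fold and 1.27-fold, and the lysosomal protease gene Ctsd rose 1.14-fold (adjusted p = 0.0024). Anpep, aminopeptidase N, fell from 83.4 ± 4.22 to 73.6 ± 5.43 CPM (adjusted p = 0.012). It was not called once progesterone replicate 1 was left out (log2 fold change -0.12, adjusted p = 0.075), with upper quartile scaling (-0.08, adjusted p = 0.20) or with limma (adjusted p = 0.052 and 0.054). Enpep, aminopeptidase A, had 51.7 ± 3.19 and 49.8 ± 2.61 CPM (95% interval of the log2 fold change -0.18 to 0.07), and Nln, neurolysin, 50.4 ± 3.36 and 46.9 ± 1.06 CPM (-0.23 to 0.02, adjusted p = 0.12, and 0.023 without control replicate 3). Lnpep, a membrane aminopeptidase, varied widely within both groups, from 2.36 to 7.81 CPM in the controls and from 1.7 to 5.93 CPM with progesterone, and its log2 fold change of -0.33 ± 0.74 turned to 0.40 without control replicate 2.

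Mas1, a receptor gene of the angiotensin system, was little read and not called. Mas1 had 7, 11 and 8 counts in the control and 7, 16 and 25 counts in the progesterone libraries (0.99 ± 0.45, adjusted p = 0.069). The adjusted p was 0.015 without progesterone replicate 1 and 0.047 with upper quartile scaling. It was 0.36 without progesterone replicate 3 (log2 fold change 0.57), 0.20 with DESeq2, and 0.22 and 0.24 with limma. Among the genes with too few counts to test, Mrgprd, a receptor gene, had 1 count over the control and 10 over the progesterone libraries. Of the 10, 7 were in replicate 2. After scaling these were 10.8 times as many (95% exact binomial interval 1.54 to 470). The interval pools the libraries of a group and covers counting error only, not the spread between libraries. Cma1, mast cell chymase, which can also make angiotensin II, had 2 and 4 counts, and Ctsg, cathepsin G, had none. Kel, the gene of an endothelin-processing protease of red cells, had 1 count in all.

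**Figure D4:**
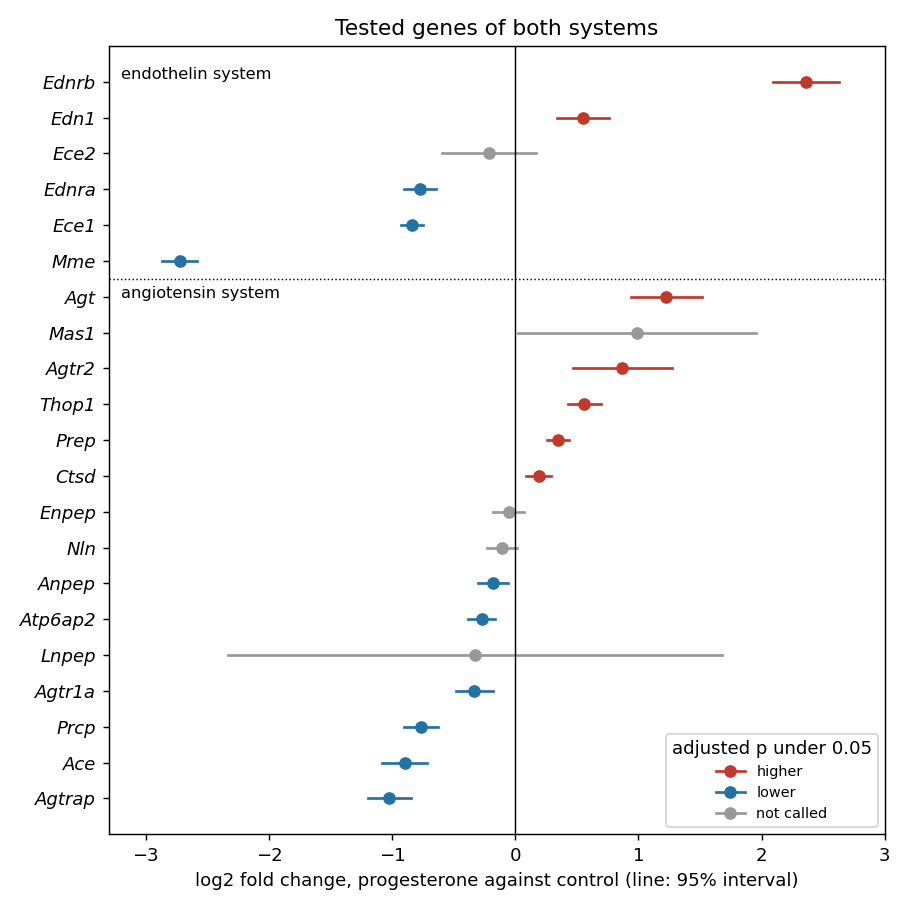
Log2 fold change (progesterone against control) of 21 of the 22 tested genes of both systems, with 95% intervals from the quasi-likelihood fit. Red and blue points are the 7 higher and 9 lower genes at an adjusted p under 0.05, and grey points are 5 genes that were not called; Ednrb at 2.36 and Mme at -2.73 lie farthest from 0.

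Kinins are linked to the angiotensins through Ace, which destroys bradykinin. Of 9 kinin genes listed, 8 had a row and 5 were tested, of which 1 was higher, 3 lower and 1 not called (median -0.52 on the log2 scale). The share called was 80%, against 63.0% over all genes tested. The kinin receptor genes changed in opposite directions. Bdkrb1, the receptor gene that inflammation induces, fell from 4.8 ± 0.464 to 0.66 ± 0.0952 CPM (log2 fold change -2.86 ± 0.21, adjusted p = 1.3e-08), while Bdkrb2, the constitutive receptor gene, rose from 8.36 ± 1.05 to 13.7 ± 1.89 CPM (0.71 ± 0.13, adjusted p = 1.4e-04). The carboxypeptidase genes Cpd and Cpm, whose enzymes trim kinins and other peptides, fell 1.54-fold and 1.22-fold. Cpm passed narrowly (adjusted p = 0.035) and was not called once progesterone replicate 1 (adjusted p = 0.16) or control replicate 2 (0.10) or 3 (0.086) was left out, with upper quartile scaling (0.14), or with DESeq2 (0.06) or limma (0.12).

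Genes that couple these receptors to the cell moved both ways. Of 34 tested genes of G proteins, phospholipase C, protein kinase C, arrestins, receptor kinases, RGS proteins and their effectors, 14 were higher, 12 lower and 8 not called. The share called was 76.5%, against 63.0% over all genes tested, and the median log2 fold change was 0.05. The RGS proteins shorten G protein signals. Rgs2, which acts mainly on Gq, fell from 86.2 ± 8.4 to 33.8 ± 1.03 CPM (log2 fold change -1.35 ± 0.07), whereas Rgs5 rose from 17.1 ± 1.24 to 47.3 ± 4.11 CPM (1.47 ± 0.08). Gnaq and Gna11, the genes of the Gq class, had log2 fold changes of 0.31 ± 0.07 and 0.24 ± 0.06. Of the other G protein genes listed, Gnai3 rose (0.20 ± 0.04), while Gna12 (-0.39 ± 0.04), Gna13 (-0.61 ± 0.05) and Gnai2 (-0.17 ± 0.04) fell. Trpc6, a calcium-permeable channel opened downstream of phospholipase C, rose 4.12-fold, from 4.07 ± 0.703 to 16.8 ± 1.42 CPM. Itpr3, an inositol trisphosphate receptor gene, fell 2.83-fold. Rgs5 is also a pericyte marker, and the 14 smooth muscle and pericyte markers summed to 2692 to 3019 CPM in the controls and 5967 to 6578 CPM with progesterone. Much of that rise was Acta2, a contractile gene, which went from 690 to 2611 CPM. Of the 14 markers 12 were higher and 2 lower (100% called, against the same 63.0%), and Abcc9 was among the lower, from 173 to 76.6 CPM.

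Of 20 genes of the calcineurin-NFAT pathway and of the hypertrophic response, 12 were higher and 4 lower, around a median of 0.25 on the log2 scale, and 80% were called, against 63.0% over all genes tested. Rcan1, an inhibitor and target of calcineurin, went from 115, 114 and 109 CPM to 195, 218 and 195 CPM, and rose 1.8-fold (adjusted p = 6.9e-10). Acta1, skeletal alpha-actin, which hypertrophic cardiomyocytes re-express, rose from 138 ± 8.18 to 482 ± 40.1 CPM. Nfatc4, a calcineurin-regulated transcription factor gene, fell from 54.1 ± 2.09 to 22.9 ± 0.583 CPM, and Egr1, an immediate early gene, fell 1.74-fold. Fos had 12.2 and 13.4 CPM and Tgfb1 68.5 and 64.5 CPM, and neither was called (adjusted p = 0.32 and 0.16).

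**Figure D5:**
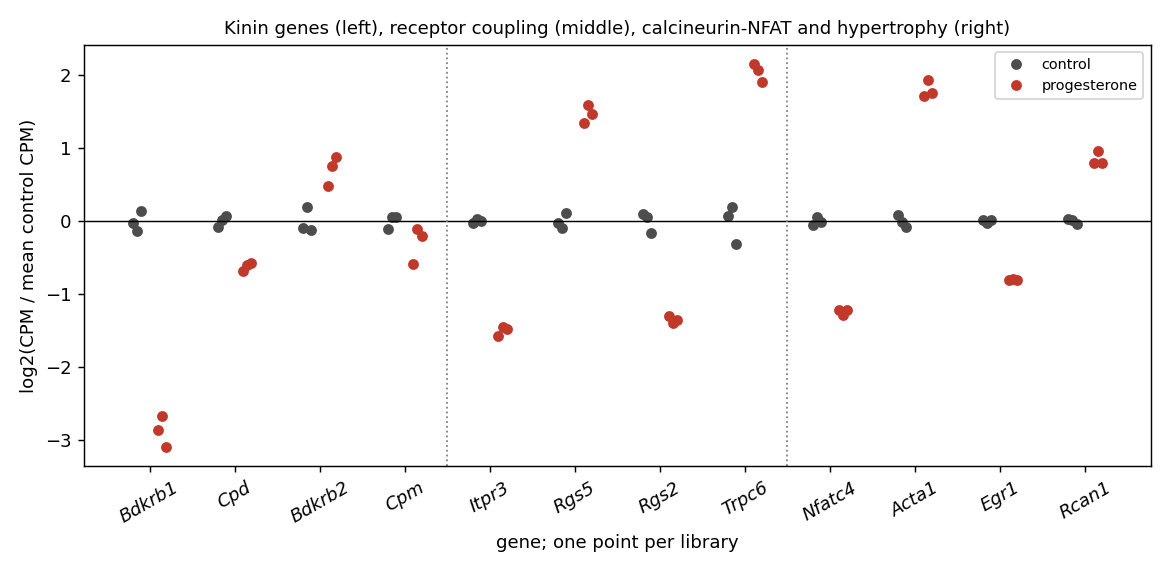
Log2 of the CPM over the mean control CPM, by library, for the 4 genes with the smallest adjusted p in the kinin, receptor coupling and calcineurin-NFAT lists (controls grey, progesterone red). Bdkrb1 lies lowest and Trpc6 highest with progesterone, and within each of the 3 lists genes lie on both sides of 0.

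NADPH oxidase is an enzyme that angiotensin II activates. Of its 7 tested genes 3 were higher and 2 lower, and 71.4% were called, against 63.0% over all genes tested. Cybb, the catalytic subunit of phagocytes, rose from 9.9 ± 3.05 to 48.8 ± 4.86 CPM, while its partner Cyba fell from 86.4 ± 1.89 to 38.2 ± 2.68 CPM and Nox4 from 7.92 ± 0.203 to 4.39 ± 0.498 CPM. Rac2, a GTPase gene of blood cells, rose 1.64-fold. The 11 leukocyte markers summed to 35.2 to 52.3 CPM in the controls and 170 to 189 CPM with progesterone, with Cd3e at 0. Of 9 tested markers 8 were higher and none lower, so that 88.9% were called, against the same 63.0%. The part of leukocytes in the rise of Cybb and Rac2 was not tested. Of 5 tested genes of the mineralocorticoid arm, 1 was higher and 3 lower, so that 80% were called, against the same 63.0%. Nr3c2, the mineralocorticoid receptor gene, rose 1.38-fold, and Hsd11b1, whose enzyme regenerates active glucocorticoid, fell from 560 ± 27.7 to 70 ± 18.2 CPM (log2 fold change -3.00 ± 0.22, adjusted p = 3.6e-04). Nedd4l, a ubiquitin ligase gene, and Scnn1a, a sodium channel subunit gene, fell 1.28-fold and 1.86-fold.

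Ednrb, Edn1, Ace and Ece1 are known to be expressed in endothelium, and Ednrb also in Schwann cells and melanocytes, so the markers of these cells were set beside them. The 12 endothelial markers with a row summed to 195 to 254 CPM in the controls and 161 to 214 CPM with progesterone, ranges that overlapped. Of 11 tested, 63.6% were called, against 63.0% over all genes tested. Among the 11, 3 were higher, 4 lower and 4 not called, around a median of -0.19 on the log2 scale. The 2 that changed at least 2-fold went opposite ways: Flt1 rose from 18.9 to 38.6 CPM and Tek fell from 29 to 8.03 CPM. Cdh5 and Nos3 were not called (adjusted p = 0.11 and 0.47), although Cdh5 went from 45 to 30.4 CPM without overlap. Cldn5 was at 0. The 8 Schwann cell and melanocyte markers summed to 40 to 43 CPM in the controls and 37.4 to 41.3 CPM with progesterone, again with overlap. Of 6 tested, 3 were higher, 1 lower and 2 not called (66.7% called, against the same 63.0%, median 0.40 on the log2 scale). Sox10 rose from 0.592 to 2.66 CPM, Erbb3 from 2.32 to 4.81 CPM and Pmel from 2.30 to 4.08 CPM, in the direction of Ednrb, while Mitf, the most read of them, fell from 29.7 to 21.1 CPM. In the libraries with lower Ednra and Agtr1a, 12 of 14 markers of smooth muscle, which carries both, were higher and 2 lower. Of 11 fibroblast markers 7 were higher and 3 lower. These are shares of 100% and 90.9% called, against the same 63.0% over all genes tested (31.2% higher, 31.8% lower). The 8 epicardial and mesothelial markers summed to 208 to 223 CPM in the controls and 246 to 273 CPM with progesterone. However, 3 were higher, 4 lower and 1 not called (87.5% called, against the same 63.0%, median -0.13 on the log2 scale). Aldh1a2 rose from 51.9 to 88.4 CPM and Msln from 23.6 to 52.4 CPM, whereas Upk1b fell from 27.9 to 11 CPM. The part of cell composition in the changes of the receptor and enzyme genes was not tested.

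The genes whose log2 CPM followed Edn1 most closely over the 6 libraries, among 13775 genes with a mean of at least 1 CPM, were Trappc1, Maco1 and Anapc11, with Pearson's r of 0.9953, 0.9925 and 0.9919. Those closest to Agt were AABR07001389.1, LOC102555183 and Fam173a (0.9984, 0.9980 and 0.9979). All 6 points share the same libraries and the same group difference, and 234 genes for Edn1 and 1065 for Agt had an r over 0.95, so these are descriptions of rank and no more.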

How the data were processed

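The mRNA of 3 control and 3 progesterone samples, grouped by their labels, was sequenced after TruSeq library preparation, per the labels' protocols. Bowtie 0.12.2 and a mouse build, mm8, are listed in the submitters' processing notes, although the rows carry rat Ensembl identifiers. No rat build, annotation, counter or strand setting is named. Raw gene counts are the authors' own, as are the deposited FPKM values, which are scaled to gene length and library size.

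The counts went into edgeR 4.0.16 (R 4.3.3), filtered by filterByExpr (at least 10 counts, 15 in total) and TMM-scaled, with robust glmQLFit, glmQLFTest and Benjamini-Hochberg adjustment over all 15075 genes tested. Assembled loci without a name took 0.826% to 0.896% of the counts. TMM factors ran from 0.984 to 1.01. CPM are TMM-scaled, and SE were derived from the F statistic. FPKM ratios were compared with exact permutation tests (SciPy 1.17.1). Where a symbol repeats, the row with the highest count was used. Only the fits were tested on simulated data, in which a far smaller share of genes changed than here. The ratios and motif searches were not tested so.

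Replicates were not duplicates: the chi-square of their counts per degree of freedom was 5.52 to 9.68, above sampling noise, and Pearson's r between libraries (log2 CPM) was 0.992 to 0.993 in a group and 0.919 to 0.927 across groups.

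The members and gene lists were chosen with earlier results of these data known. Named were the genes of the endothelin and angiotensin lists, except for items that are not reported here and stay in the counts, and, from each other list, up to 4 tested genes with the smallest adjusted p. Fos, Tgfb1, Gnaq, Gna11, Gna12, Gna13, Gnai2 and Gnai3 of those lists, and the single markers given, were named after their values were seen. As alternatives, scaling was by RLE, by upper quartile or by library size, genes were unfiltered or needed 1 CPM in 3 libraries, and single replicates were dropped. Others were a replicate block, the Wald test of DESeq2 1.42.0, and limma 3.58.1 on log2(FPKM + 1) and log2(FPKM + 0.1) for genes with a mean of at least 0.1 FPKM. For the ratios, CPM replaced FPKM.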

Additional observations from a re-analysis of the deposited data

How the results depend on the processing

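All 8 tested members kept their direction and their call in each of the 15 alternatives, and no adjusted p among them was above 0.011. The log2 fold change ran from 0.43 to 0.65 for Edn1, from 2.20 to 2.46 for Ednrb, from 1.09 to 1.36 for Agt and from 0.45 to 0.98 for Agtr2, and from -0.84 to -0.68 for Ednra, -0.85 to -0.74 for Ece1, -0.96 to -0.80 for Ace and -0.40 to -0.23 for Agtr1a. The count of changed genes ran from 8608 with DESeq2 to 9871 without a filter, and that of changed genes of both systems from 15 to 18. Upper quartile scaling shifted the median over all genes from 0.00 to 0.10 (log2) and turned Enpep from -0.05 to 0.04. Leaving out 1 replicate gave Lnpep values from -0.96 to 0.40, and the cause was not tested. Both receptor ratios kept their direction with CPM and without each replicate, which was fixed in advance and is no test. Within a library, CPM and FPKM ratios of a gene pair differ only by a constant. The control and progesterone ratios did not overlap, so leaving out 1 replicate could not reverse them. Over 659 values of single genes under the alternatives, 11 lost a call, 8 gained one and 2 reversed. These values cover the tested genes of both systems, those picked by adjusted p from the other gene lists, Mycbp2 and Cog2. The other genes and markers named were not included. With a replicate block 9508 genes changed, against 9497. Same-numbered libraries deviated together only weakly (r = 0.0758, 0.0232 and 0.0141, each under 0.1). Control replicates 1 and 2 correlated best with the progesterone library of their own number, but control replicate 3 with progesterone replicate 2 (r = 0.0606). As all these values were small, the numbers were not taken as pairs, and a pairing was not excluded. Depth limits Edn3 and the other genes with at most 11 counts, which were not tested.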
